A study of Mus musculus with 11 samples.

Results

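Macrophages are the phagocytes that clear damaged muscle fibres, and 10 genes that mark them or serve as their scavenger and pattern receptors were followed here: Cd68, Csf1r, Emr1, Cd14, Cd52, Lyz1, Lyz2, Msr1, Mrc1 and Cd163. They were chosen by name, as the probe sets whose gene symbol equals one of these names, and make up 10 of the 21759 gene symbols on the array. Emr1 is the older name of Adgre1, which encodes the F4/80 antigen. Messenger RNA was measured in the tibialis anterior (TA), a fast muscle of the lower leg, of 11 male mice of 14 weeks of age with Affymetrix Gene ST arrays, and every mouse had an array of its own. The wild-type group was 3 C57/Bl10 mice, called C57. The dystrophic group was 4 untreated *mdx* mice, which lack dystrophin through a point mutation in Dmd. The treated group was 4 *mdx* mice given Pip6e-PMO, a morpholino antisense oligonucleotide joined to a cell-penetrating peptide, which brings back dystrophin by skipping the mutated exon, as 1 tail-vein injection of 12.5 mg/kg at 12 weeks of age, 2 weeks before harvest. RNA came from sections of whole muscle, so all cell types of the tissue contribute to each value.

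Resident macrophages of healthy muscle lie between the fibres and carry the mannose receptor Mrc1 (CD206) and, in part, the haemoglobin scavenger receptor Cd163. After injury, blood monocytes enter, become inflammatory macrophages that engulf debris, and later shift to a repair state in which Mrc1 is typically raised. Cd68, the Csf1 receptor Csf1r and Emr1 are carried by macrophages of either kind, and dystrophic muscle is known for repeated rounds of this entry.

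Signals are given as log2 of the normalized intensity, and differences as differences of group means on that scale. A probe set was tested when its mean intensity reached 30 in at least 1 group, which 8 of the 10 genes did. Cd163 (mean intensity 28.8 in C57, 23.3 in *mdx* and 23.0 in treated mice) and Msr1 (11.2, 13.8 and 12.8) did not, so their values are given without a test. A gene is called changed where its p from limma, adjusted by Benjamini-Hochberg over all 14494 probe sets tested, is under 0.05. Each gene had 1 probe set, marked as unique in the deposited annotation. The brightness of a probe set depends on its probes, so levels were not compared between genes. The gene spans of Csf1r, Emr1, Cd163 and Mrc1 also hold other RefSeq genes, most of them predicted or microRNA genes, and their part in the signals was not tested.

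The array data as a whole set a few limits. Treated mouse 2 stood farthest from its group, with a median absolute deviation over probe sets, scaled as an SD, of 0.38 from the mean of the other treated mice against 0.15 to 0.26 for the other 10 mice, and differences between treated and *mdx* mice are also given without it for Cd68, Cd52, Trem2 and the gene lists whose calls changed, and the genes this adds to a list's calls are named after their values were seen. The paper reports the lowest exon skipping and dystrophin protein, by PCR and mass spectrometry, in its treated sample T2. In its mRNA clustering T2 also lay nearer to the *mdx* samples. If T2 is treated mouse 2, leaving it out removes the animal in which treatment worked least, so larger differences can follow. With treated mouse 2 left out, 16.3% of all probe sets tested were called higher in treated than in *mdx* mice and 12% were called lower. The markers of the labelled tissue were bright, since 10 muscle fibre genes had a mean log2 signal between 12.70 and 12.82 in every mouse, and none of the 10 was called in any comparison. In whole muscle, more cells of a type and more RNA per cell cannot be told apart. All 3 comparisons reuse the same mice, so the *mdx* mice enter both the comparison with C57 and that with treated mice.

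The sequences just before the start of 4 of the genes are shown because they belong to the results below: Cd68 and Mrc1 were the members that moved in opposite directions with treatment, and Lyz1 and Lyz2 are close copies whose probe sets may share signal. Each is the 250 bases before the start in RefSeq, build GRCm38.p6, read 5′ to 3′ on the strand of the gene: Cd68 at chr11:69666171-69666420 (minus strand), Mrc1 at chr2:14229164-14229413 (plus strand), Lyz1 at chr10:117292869-117293118 (minus strand) and Lyz2 at chr10:117282273-117282522 (minus strand). Capitals mark the exact letters GAGGAA, a form of the site of PU.1, the macrophage factor encoded by Spi1, or their reverse complement TTCCTC. These letters are called the core here, and other forms of the site were not searched.
Cd68: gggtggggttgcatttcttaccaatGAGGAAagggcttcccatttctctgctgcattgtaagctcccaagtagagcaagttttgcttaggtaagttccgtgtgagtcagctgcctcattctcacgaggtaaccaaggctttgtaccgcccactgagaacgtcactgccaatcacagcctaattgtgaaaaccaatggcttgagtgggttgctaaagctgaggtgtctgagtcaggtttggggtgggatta
Mrc1: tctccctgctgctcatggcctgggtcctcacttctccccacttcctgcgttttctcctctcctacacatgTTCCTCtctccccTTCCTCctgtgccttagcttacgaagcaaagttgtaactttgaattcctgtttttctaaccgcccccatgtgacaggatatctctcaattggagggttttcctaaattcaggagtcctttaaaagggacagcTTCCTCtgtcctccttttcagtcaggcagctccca
Lyz1: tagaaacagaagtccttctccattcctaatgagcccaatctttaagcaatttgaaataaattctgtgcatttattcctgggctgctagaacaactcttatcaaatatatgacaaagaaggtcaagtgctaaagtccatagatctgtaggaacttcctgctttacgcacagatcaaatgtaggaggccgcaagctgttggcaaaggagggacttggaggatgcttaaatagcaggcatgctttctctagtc
Lyz2: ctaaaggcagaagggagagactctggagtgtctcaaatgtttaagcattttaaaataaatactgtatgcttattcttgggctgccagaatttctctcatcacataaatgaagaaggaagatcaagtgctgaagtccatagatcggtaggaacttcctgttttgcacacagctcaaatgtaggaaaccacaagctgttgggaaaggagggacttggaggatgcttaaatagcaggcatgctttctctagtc

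The Cd68 window held the core once, 225 bases before the start, and the Mrc1 window held it 3 times, at 180, 167 and 35 bases, each time as the reverse complement. The windows of Lyz1, Lyz2 and Cd163 did not hold these exact letters, which does not show that they lack a PU.1 site. Searched on both strands, the core was in 23.3% of all 32851 promoter windows of this length, so a match is common. An AP-1 motif, TGANTCA, was in 6.75% of all windows and occurred 2 times in that of Cd68, apart from the PU.1 core, and in none of the other 4. Aligned to each other, the Lyz1 and Lyz2 windows were identical in 205 of 260 columns (78.8%). Of the 10 genes, 5 had a promoter entry; Csf1r, Emr1, Cd14, Msr1 and Cd52 had none.

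Macrophage genes were higher in dystrophic than in wild-type muscle. Of the 8 genes tested, 6 were called higher in *mdx* than in C57 and none lower, where 7.06% of all probe sets tested were called higher and 4.96% lower (12% in either direction). The rises ran from 1.76-fold for Cd14 to 4.35-fold for Cd68, and Mrc1 and Lyz1 did not pass. The median difference was 1.17 over the 8 genes tested and -0.01 over all probe sets tested. In 7 of the 8, all 4 *mdx* mice lay above all 3 C57 mice, against 13.1% of all probe sets tested, and Lyz1 was the exception.

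**Figure D1:**
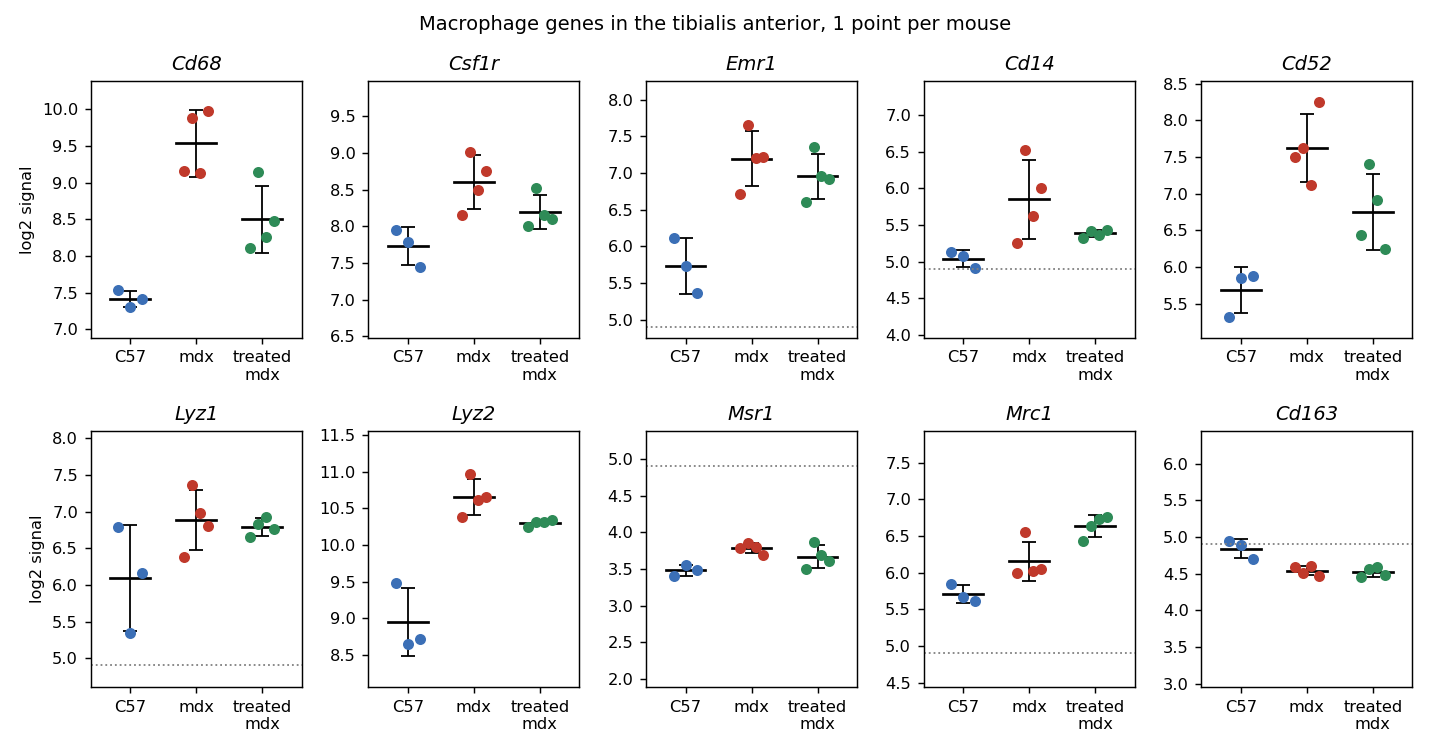
Log2 signal of the 10 macrophage genes in each mouse, 1 point per mouse, with C57 (3 mice), *mdx* (4 mice) and treated *mdx* mice (4 mice) side by side; bars are the mean and SD of each group, and the dotted line is the minimum signal of 30. The vertical axes differ in position but share 1 height in log2 units. Cd68 and Cd52 stand high in *mdx* and part of the way down in treated mice, Mrc1 is highest in the treated mice, and Msr1 and all values of Cd163 but that of C57 mouse 1 lie under the line.

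Cd68 (probe set 10387536; chromosome 11, 69664213 to 69666170 in GRCm38.p6), a lysosomal glycoprotein of phagocytes, showed the largest rise of the 10. Signals of Cd68 on the log2 scale were 7.53, 7.30 and 7.41 in C57 mice 1 to 3, 9.16, 9.88, 9.13 and 9.97 in *mdx* mice 1 to 4, and 8.11, 9.15, 8.26 and 8.48 in treated mice 1 to 4. The *mdx* mice fell into a higher pair, mice 2 and 4, and a lower pair, mice 1 and 3, and even the lower pair stood well clear of every C57 mouse. Cd68 thus differed by 2.12 between the 2 groups (standard error 0.26, adjusted p = 3.44e-04 in limma). Treated mice were above all C57 mice and mostly below the *mdx* mice, with mouse 2 alone reaching into the *mdx* range. Cd68 was lower by 2.05-fold in treated than in *mdx* mice (difference -1.04, standard error 0.24, adjusted p = 0.0245), and the call was lost with any of *mdx* mice 2 and 4 or treated mice 1, 3 and 4 left out (adjusted p up to 0.0718). Without treated mouse 2 the difference was -1.25 (adjusted p = 0.00336). Against C57, the treated mice stayed 2.12-fold higher (difference 1.09, adjusted p = 0.0115).

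Emr1 (probe set 10446282; chromosome 17, 57358581 to 57483529) encodes F4/80, the classic surface marker of mouse macrophages. It measured 6.12, 5.73 and 5.36 in C57, 6.72, 7.65, 7.20 and 7.22 in *mdx*, and 6.60, 7.35, 6.96 and 6.92 in treated mice. All *mdx* and all treated mice stood above all C57 mice, and the treated values lay within or just under the *mdx* range. The rise in *mdx* was 1.46 (standard error 0.23, adjusted p = 0.00189), 2.75-fold. Treated and *mdx* mice were not shown to differ: the difference was -0.24, with a 95% confidence interval of -0.71 to 0.23 (adjusted p = 0.470), an interval that also holds the estimate for Csf1r given below. Treated mice remained 2.33-fold above C57 (adjusted p = 0.00389).

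Csf1r (probe set 10456071; chromosome 18, 61105572 to 61131139) is the receptor for the growth factors Csf1 and Il34, on which macrophages depend for survival. Csf1r measured 7.95, 7.79 and 7.45 in C57, 8.15, 9.01, 8.50 and 8.76 in *mdx*, and 8.00, 8.52, 8.15 and 8.10 in treated mice. The gap between C57 mouse 1 and *mdx* mouse 1 was small, but neither the *mdx* nor the treated mice overlapped with C57. The rise in *mdx* was 0.88 (standard error 0.20, adjusted p = 0.0126), 1.83-fold, and was lost without C57 mouse 3 (adjusted p = 0.0654). In treated against *mdx* mice the difference was -0.41 (95% confidence interval -0.81 to -0.02, adjusted p = 0.144), and in treated against C57 mice 0.46 (adjusted p = 0.102), so neither was called.

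Among the ligands of Csf1r and the factors of the myeloid lineage, 10 genes in all were each tested. In *mdx*, 4 were called higher and 1 lower, beside 7.06% and 4.96% of all probe sets tested, and the median difference was 0.37. The higher ones were Runx1, Spi1, and the receptor chains Csf2rb and Csf2ra of the growth factor GM-CSF. Spi1, which encodes PU.1 and is listed under its older name Sfpi1, measured 5.92, 5.91 and 6.08 in C57, 6.97, 7.67, 7.20 and 7.85 in *mdx*, and 6.48, 7.18, 6.57 and 6.16 in treated mice. Its groups were ordered as those of Cd68, with treated mouse 2 again the highest of its group. Spi1 rose by 1.45 in *mdx* (adjusted p = 0.00221) and fell with treatment (difference from *mdx* -0.83, adjusted p = 0.0363). It was the 1 called lower of the 10, beside 3.88% of all probe sets tested. Without treated mouse 2 the Spi1 difference from *mdx* was -1.02 (adjusted p = 0.00514). Then 4 of the 10 were called lower, with Csf2ra, Csf2rb and Cebpa besides Spi1, where the share of all probe sets tested was 12%. Runx1, a transcription factor also used in regenerating muscle, rose by 1.72 in *mdx* (adjusted p = 2.14e-05) and was not called in treated against *mdx* mice (difference -0.19, adjusted p = 0.327). Csf2rb rose by 1.16 and Csf2ra by 0.92 (adjusted p = 8.43e-04 and 0.0122), while Cebpb, a factor of monocytes that other cells also express, was lower in *mdx* (difference -0.69, adjusted p = 0.0224). Neither ligand was called in either of these comparisons.

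Cd52 (probe set 10517165; chromosome 4, 134093538 to 134095073) encodes a small surface glycoprotein of lymphocytes, monocytes and macrophages. Log2 signals of Cd52 were 5.32, 5.85 and 5.88 in C57, 7.50, 7.62, 7.12 and 8.25 in *mdx*, and 6.44, 7.40, 6.91 and 6.24 in treated mice. No *mdx* or treated mouse came down to a C57 mouse, and among the treated mice only mouse 2 reached the *mdx* range. The rise in *mdx* was 1.94 (standard error 0.29, adjusted p = 0.0013), 3.83-fold. Between treated and *mdx* mice the difference was -0.88 (95% confidence interval -1.47 to -0.28, adjusted p = 0.0571), which was not called, and without treated mouse 2 it was -1.09 (adjusted p = 0.0105). The 6 T cell genes and the 5 natural killer cell genes were all under the minimum signal, as were 4 of 5 B cell genes, and the fifth, Cd79b, was not called. The T cell list had a mean log2 signal of 3.49 to 3.66 in C57 mice, 3.69 to 3.91 in *mdx* mice and 3.63 to 3.67 in treated mice.

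Cd14 (probe set 10458382; chromosome 18, 36725064 to 36726815) is the co-receptor that hands bacterial lipopolysaccharide to the Toll-like receptor Tlr4. Cd14 measured 5.13, 5.08 and 4.91 in C57, 5.26, 6.52, 5.62 and 6.01 in *mdx*, and 5.33, 5.42, 5.37 and 5.43 in treated mice. The *mdx* mice were widely spread, from just above C57 in mouse 1 to far above it in mouse 2, whereas the 4 treated mice were nearly equal and within the *mdx* range. The rise of 0.81 in *mdx* (standard error 0.22, adjusted p = 0.0332) was the weakest of the 6 calls and was lost without any 1 of the 3 C57 mice or without *mdx* mouse 4 (adjusted p up to 0.118). The difference of treated from *mdx* mice was -0.47 (adjusted p = 0.144). Against C57 it was 0.35 (adjusted p = 0.262), although no treated mouse overlapped with C57.

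Of 8 further genes that act with Cd14, 7 were tested. In *mdx*, 4 were called higher and none lower, beside 7.06% and 4.96% of all probe sets tested, and the median difference was 0.52. Cd180, a Toll-like receptor relative of B cells and macrophages, rose by 1.55 (adjusted p = 0.00245), Ly96, the partner of Tlr4, by 0.98 (adjusted p = 0.0471), the adaptor Myd88 by 0.84 (adjusted p = 0.0086) and the lipopolysaccharide-binding protein Lbp by 0.52 (adjusted p = 0.0454). In treated against *mdx* mice, Lbp was the 1 gene called, beside 3.88% of all probe sets tested called lower. Without treated mouse 2, Myd88 was called lower as well (difference -0.71, adjusted p = 0.00475), where the share of all probe sets tested was 12%. The Lbp log2 signals were 8.56, 8.42 and 8.64 in C57, 9.03, 9.09, 9.03 and 9.08 in *mdx*, and 8.02, 8.79, 8.24 and 8.17 in treated mice. All treated mice were below all *mdx* mice, and 3 of them were below C57 as well (difference from *mdx* -0.75, adjusted p = 0.0131). Tlr4 itself was under the minimum signal.

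Lyz1 (probe set 10372652; chromosome 10, 117287795 to 117292868) and Lyz2 (probe set 10372648; chromosome 10, 117277541 to 117282272) encode lysozyme, and Lyz2 is the form of macrophages, monocytes and neutrophils. The log2 signals of Lyz2 were 9.48, 8.65 and 8.72 in C57, 10.38, 10.97, 10.61 and 10.65 in *mdx*, and 10.25, 10.32, 10.32 and 10.34 in treated mice. The 3 groups did not overlap, with C57 lowest, *mdx* highest and the treated mice close together just under *mdx* mouse 1. Lyz2 rose by 1.70 in *mdx* (standard error 0.19, adjusted p = 1.57e-04), 3.25-fold. It was the only member with every treated mouse below every *mdx* mouse, which held for 6.69% of all probe sets tested, but the difference of -0.35 was not called (95% confidence interval -0.72 to 0.03, adjusted p = 0.192). Treated mice remained 2.56-fold above C57 (adjusted p = 5.95e-04).

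Lyz1 was measured at 6.79, 5.35 and 6.16 in C57, 6.38, 7.36, 6.99 and 6.80 in *mdx*, and 6.65, 6.84, 6.93 and 6.76 in treated mice. C57 mouse 1 lay above *mdx* mouse 1 and treated mouse 1, so the groups overlapped, and the C57 mice had the widest spread of any group among the 10 genes (SD 0.72). The difference of *mdx* from C57 was 0.78 (adjusted p = 0.104), and it was 1.13 without C57 mouse 1 (adjusted p = 0.0183). Between treated and *mdx* mice it was -0.09 (adjusted p = 0.853). Because the 2 genes lie side by side and their transcripts are closely alike, how far the Lyz1 probe set also reads Lyz2 RNA was not tested, and the Lyz1 values are uncertain to that extent.

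Neutrophils also express Lyz2 and Cd14, and 8 neutrophil genes were read beside them. Of these, 2 were tested and both were called in each of the first 2 comparisons. Retnlg, a neutrophil-derived resistin-like protein, measured 3.80, 3.61 and 4.00 in C57, 4.08, 5.37, 5.06 and 5.89 in *mdx*, and 3.33, 3.61, 3.23 and 3.27 in treated mice. Csf3r, the receptor for the neutrophil growth factor G-CSF, measured 4.27, 4.15 and 4.25 in C57, 5.16, 5.04, 5.33 and 5.29 in *mdx*, and 4.50, 4.59, 4.48 and 4.34 in treated mice. Both were higher in *mdx* than in C57 (differences 1.30 and 0.98, adjusted p = 0.0178 and 8.18e-05) and below *mdx* in the treated mice (-1.74 and -0.73, adjusted p = 0.00925 and 0.00312). The other 6, among them S100a8 and S100a9, were under the minimum signal. Over the 8 genes the mean log2 signal ranged from 3.47 to 3.62 in C57 mice, from 3.77 to 4.13 in *mdx* mice and from 3.33 to 3.48 in treated mice, and its part in the Lyz2 and Cd14 values was not tested.

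With treatment, the 2 calls among the members went in opposite directions. Of the 8 genes tested, 1 was called lower in treated than in *mdx* mice (Cd68) and 1 higher (Mrc1), where 3.88% of all probe sets tested were called lower and 7.26% higher. In all, 7 of the 8 differences were below 0, with a median of -0.38 against 0.02 over all probe sets tested. At an unadjusted p under 0.05, 5 of the 8 passed, and with the t-test of the methods neither Cd68 nor Mrc1 passed after adjustment (adjusted p = 0.14 and 0.141). The 2 calls of 8 stand beside 11.1% of all probe sets tested, called in either direction. No member had every treated mouse above every *mdx* mouse, a pattern seen in 9.29% of all probe sets tested.

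**Figure D2:**
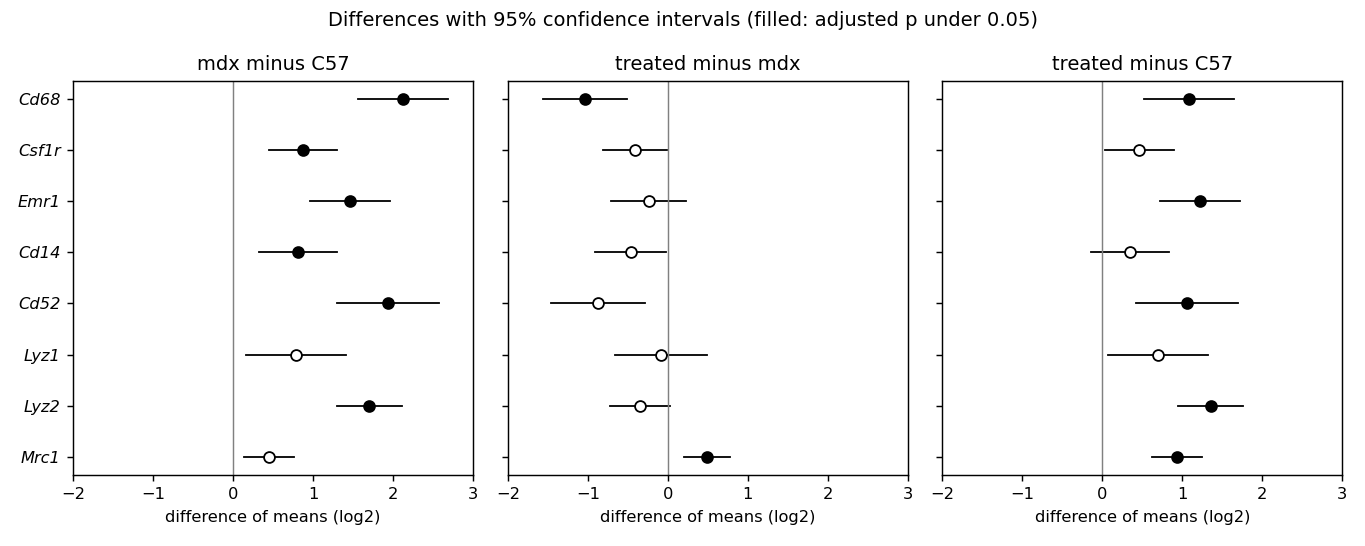
Difference of group means in log2 units (points) with 95% confidence intervals (lines) for the 8 genes tested, with 1 panel each for *mdx* against C57, treated against *mdx* and treated against C57 mice; filled points have an adjusted p under 0.05. All 8 points lie above 0 in both panels against C57, and Mrc1 alone lies above 0 in that of treated against *mdx* mice.

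Mrc1 (probe set 10469358; chromosome 2, 14229414 to 14332023, a span that also holds the microRNA gene Mir511) encodes the mannose receptor, which takes up glycoproteins and marks resident and repair macrophages. Mrc1 signals were 5.84, 5.67 and 5.61 in C57, 5.99, 6.55, 6.02 and 6.05 in *mdx*, and 6.43, 6.64, 6.73 and 6.76 in treated mice. All *mdx* and treated mice lay above all C57 mice, and the treated mice were the highest, except that *mdx* mouse 2 stood above the other *mdx* mice and above treated mouse 1. The difference of *mdx* from C57 was 0.45 (95% confidence interval 0.14 to 0.76, adjusted p = 0.0638) and was not called. In treated mice Mrc1 was 1.40-fold above *mdx* (difference 0.49, standard error 0.13, adjusted p = 0.0377). That call was lost when any of C57 mouse 2, *mdx* mice 1, 3 and 4 and treated mice 1, 3 and 4 was left out (adjusted p up to 0.105). Against C57 the treated mice were 1.91-fold higher (difference 0.93, adjusted p = 0.00118).

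Endothelium of the liver and of lymph vessels expresses Mrc1 besides macrophages, and 4 endothelial markers were read beside it. The mean log2 signal of Pecam1, Cdh5, Kdr and Tie1 ranged from 8.33 to 8.65 in C57 mice, from 8.49 to 8.84 in *mdx* mice and from 8.84 to 9.24 in treated mice. None of the 4 was called in *mdx* against C57, and 1 of 4, Pecam1, was called higher in treated than in *mdx* mice (difference 0.78, adjusted p = 0.0277), and Kdr as well without treated mouse 2 (0.65, adjusted p = 0.0173). Over all probe sets tested, 7.26% were called higher with all mice and 16.3% without treated mouse 2. The part of endothelial RNA in the Mrc1 values was not tested.

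Cd163 (probe set 10541644; chromosome 6, 124304636 to 124330529) was the 1 member with lower values in dystrophic muscle, near the limit of the array. Its log2 signals were 4.94, 4.89 and 4.70 in C57, 4.59, 4.51, 4.60 and 4.47 in *mdx*, and 4.46, 4.56, 4.59 and 4.48 in treated mice. All *mdx* and all treated mice lay below all C57 mice, and the *mdx* and treated values were interleaved. The differences were -0.30 in *mdx* against C57, -0.02 in treated against *mdx* and -0.32 in treated against C57. With no minimum signal, Cd163 enters the test, and its differences from C57 were then called in *mdx* and treated mice (adjusted p = 0.044 and 0.022), although all group means are below 30.

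Msr1 (probe set 10578264; chromosome 8, 39543232 to 39642750), the class A scavenger receptor that takes up modified lipoproteins, was far under the minimum signal, with 3.40, 3.55 and 3.49 in C57, 3.79, 3.85, 3.80 and 3.69 in *mdx*, and 3.50, 3.87, 3.69 and 3.61 in treated mice. The *mdx* mice lay above the C57 mice, by 0.30 in the mean, and the treated mice overlapped with both. At this brightness no fold is given.

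To compare resident with general macrophage markers, the changes of Mrc1 and Cd163 were set against those of Cd68, Csf1r and Emr1 within each array, 6 pairs per comparison, with exact permutation tests over mice, two-sided, and adjustment over the 6 pairs. In *mdx* against C57, the changes of both resident markers were below those of all 3 general ones. The change of Mrc1 less that of Cd68 was -1.68, less that of Emr1 -1.02 and less that of Csf1r -0.43, and the mice of the 2 groups did not overlap in any of the 6 pairs. With 4 against 3 mice the smallest p that the exact test can give is 0.0571, so each pair stood at that limit (adjusted p = 0.0571) and none could pass. For Cd163, which is under the minimum signal, the differences of changes were -2.42 from Cd68, -1.76 from Emr1 and -1.18 from Csf1r.

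In treated against *mdx* mice the differences of changes had the opposite sign for Mrc1 and, with smaller sizes, for Cd163. The rise of Mrc1 itself with treatment was not shared by most of the other resident macrophage genes given below. Of 11 such genes tested, 8 had a difference below 0 and none was called higher in treated against *mdx* mice. Their changes were not tested against those of the general markers. The lowest of them, that of Cd209f (-0.745), was still above that of Cd68 (-1.035). Around those of Csf1r (-0.41) and Emr1 (-0.24) they lay on both sides. The change of Mrc1 exceeded that of Cd68 by 1.52, that of Csf1r by 0.90 and that of Emr1 by 0.73. In each of these 3 pairs the 4 treated mice did not overlap with the 4 *mdx* mice, and the exact permutation p was 0.0286, the smallest that 4 against 4 mice allow, with an adjusted p of 0.0571. The log2 signal of Mrc1 less that of Cd68, whose size depends on the probes and only whose shifts can be read, was -1.69, -1.63 and -1.80 in C57, -3.17, -3.33, -3.11 and -3.92 in *mdx*, and -1.68, -2.51, -1.53 and -1.72 in treated mice. On this measure 3 of the treated mice lay in or next to the C57 range, and mouse 2 lay between C57 and *mdx*. For Cd163 the differences of changes were 1.02 from Cd68, 0.39 from Csf1r and 0.22 from Emr1, and the exact permutation p of each was above 0.05 (0.0857, 0.229 and 0.429). By the exact test 0 of the 6 pairs passed after adjustment in either comparison, and 0 and 3 passed unadjusted. With limma on the same within-array differences, 5 pairs passed in *mdx* against C57 and 4 in treated against *mdx* mice. Of these, 2 and 3 were pairs of Mrc1, and the rest were pairs of Cd163, which is under the minimum signal. Limma pooled its spread over these 6 rows alone, which share genes and so are not independent. Its p can therefore be too small, and no conclusion is drawn from these passes.

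**Figure D3:**
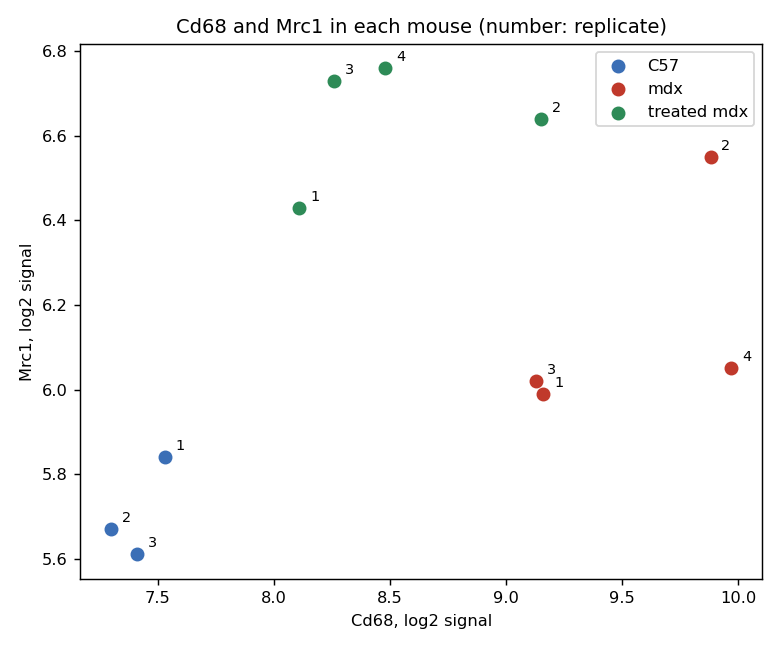
Log2 signal of Mrc1 (vertical) against that of Cd68 (horizontal), 1 point per mouse, numbered by replicate, in C57, *mdx* and treated *mdx* mice. The C57 mice are low in both, the *mdx* mice are highest in Cd68, and the treated mice combine Cd68 values of 8.11 to 9.15 with Mrc1 values of 6.43 to 6.76.

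Of 14 genes of monocytes and inflammatory or lipid-laden macrophages, 9 were tested, 5 were called higher in *mdx* than in C57 and none lower, where 7.06% of all probe sets tested were called higher. The median difference over the 9 was 1.09. These were Gpnmb, Itgax, Trem2, Spp1 and Fcgr1. Trem2, a lipid receptor of phagocytes, measured 5.51, 5.39 and 5.29 in C57, 6.93, 7.81, 7.23 and 7.62 in *mdx*, and 5.90, 7.29, 6.19 and 6.36 in treated mice. All *mdx* mice stood well above C57, and the treated mice lay between, except mouse 2, which lay within the *mdx* range. Trem2 rose by 2.00 in *mdx* (adjusted p = 9.25e-04) and fell with treatment (difference from *mdx* -0.96, adjusted p = 0.0390). Without treated mouse 2 the difference was -1.25 (adjusted p = 0.00288).

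Itgax, the integrin chain CD11c of dendritic cells and some macrophages, rose by 2.02 in *mdx* (adjusted p = 0.00262), and Gpnmb, a glycoprotein of lysosome-rich macrophages, rose by 2.05 (adjusted p = 0.0220). Neither was called in treated against *mdx* mice (differences -0.44 and -0.74, adjusted p = 0.363 and 0.309). Spp1, which encodes osteopontin, measured 4.61, 4.80 and 5.26 in C57, 6.12, 5.89, 6.47 and 6.24 in *mdx*, and 4.79, 5.59, 4.61 and 5.86 in treated mice. Its *mdx* values lay above all others, so that it rose in *mdx* by 1.29 (adjusted p = 0.0102) and fell with treatment (difference -0.97, adjusted p = 0.0363). Fcgr1, the high-affinity IgG receptor, rose by 0.71 in *mdx* (adjusted p = 0.0136). Ly6c2 was also called lower in treated than in *mdx* mice (difference -0.47, adjusted p = 0.0284). It is a monocyte marker, named here after its values were seen, and its probe set is marked as not unique. With Trem2 and Spp1, 3 of the 9 genes tested were called lower and none higher in treated than in *mdx* mice, beside 3.88% and 7.26% of all probe sets tested. Ccr2, Il1b, Cd86, Chi3l3 and Arg1 were under the minimum signal, and Tnf and Nos2 were tested and not called.

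Of 12 resident macrophage genes other than the members, 11 were tested; 2 were called higher in *mdx* than in C57 and none lower, beside 7.06% and 4.96% of all probe sets tested, with a median difference of 0.31. These were Siglec1, a sialic acid receptor (difference 0.76, adjusted p = 0.0231), and Cbr2, a carbonyl reductase (0.50, adjusted p = 0.0430). In treated against *mdx* mice none was called higher and 2 were called lower, Folr2 and Cbr2, beside 3.88% of all probe sets tested called lower. The median difference of the 11 genes was then -0.195, with 8 below 0 and 3 above. Without treated mouse 2, 4 were called lower, with Siglec1 and Cd209f added, where the share of all probe sets tested was 12%. Folr2, a folate receptor of resident macrophages, measured 7.53, 7.05 and 7.10 in C57, 7.14, 7.87, 7.12 and 7.72 in *mdx*, and 6.78, 7.01, 6.57 and 6.85 in treated mice. The treated mice lay below all others, the C57 mice included, with a difference of -0.66 from *mdx* (adjusted p = 0.0400). Cbr2 measured 10.73, 10.19 and 10.47 in C57, 10.86, 11.18, 10.90 and 10.91 in *mdx*, and 10.18, 10.56, 10.55 and 10.58 in treated mice, which again lay below all *mdx* mice (difference -0.50, adjusted p = 0.0377). Lyve1, Stab1, F13a1 and Mgl2 were among those tested and not called in either comparison. In treated against C57 mice 1 was called higher, the transcription factor Maf (difference 0.50, adjusted p = 0.00389), and 2 were called lower, the lectin Cd209f (-1.55, adjusted p = 0.002) and the ligand Gas6 (-0.35, adjusted p = 0.0243), named here after their values were seen. These 3 of 11 are near the share of all probe sets tested, of which 15.6% were called higher and 8.96% lower (24.6% in either direction).

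Other scavenger receptors went both ways. Of 12, 9 were tested, with a median difference of 0.25 in *mdx* against C57. There, 3 were called higher and 1 lower, beside 7.06% and 4.96% of all probe sets tested. Cxcl16, which binds oxidized lipoprotein as well as acting as a chemokine, measured 5.93, 5.64 and 5.99 in C57, 7.14, 7.42, 7.46 and 7.35 in *mdx*, and 6.47, 7.12, 6.69 and 6.37 in treated mice. Its 3 groups did not overlap. Cxcl16 rose by 1.49 in *mdx* (adjusted p = 1.93e-04) and fell with treatment (difference from *mdx* -0.68, adjusted p = 0.0234). Colec12 and Megf10, the latter a receptor also of muscle satellite cells, rose by 0.53 and 0.42 in *mdx* (adjusted p = 0.0380 and 0.0350), and Stab2, a hyaluronan receptor of sinusoidal endothelium, was lower (difference -0.47, adjusted p = 0.0126). Cd36, the fatty acid and lipoprotein receptor, which muscle fibres and endothelium also express, measured 8.73, 8.90 and 9.06 in C57, 9.08, 9.11, 8.44 and 7.82 in *mdx*, and 9.45, 9.39, 9.72 and 9.81 in treated mice. The treated mice were above all others (difference from *mdx* 0.98, adjusted p = 0.0291). Scarb2, a lysosomal membrane protein named here after its values were seen, was the other gene called higher with treatment (difference 0.42, adjusted p = 0.0296), and Marco, Cd5l and Olr1 were under the minimum signal.

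**Figure D4:**
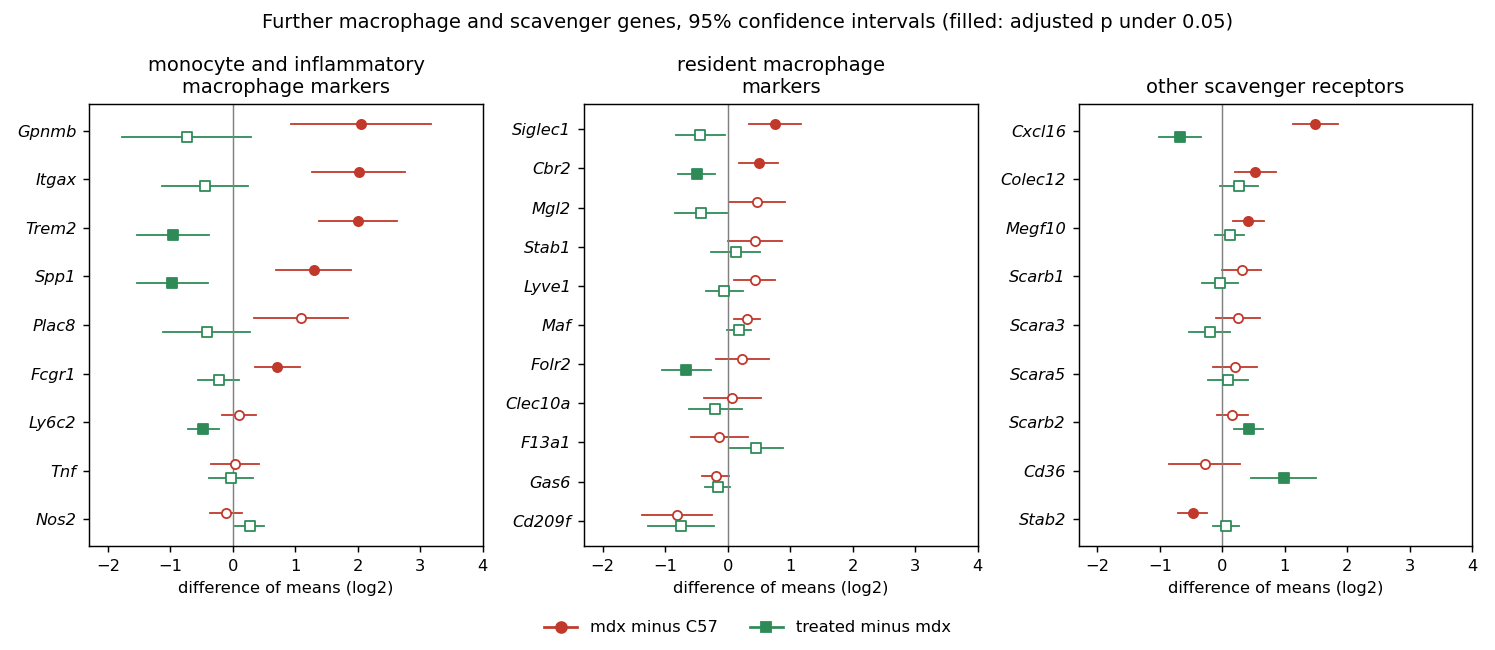
Difference of group means in log2 units with 95% confidence intervals for the tested genes of 3 lists (9 monocyte and inflammatory macrophage markers, 11 resident macrophage markers and 9 other scavenger receptors), in *mdx* minus C57 (circles) and treated minus *mdx* (squares); filled symbols have an adjusted p under 0.05. The largest rises in *mdx* are Gpnmb, Itgax and Trem2, and Cd36 has the largest rise with treatment.

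Treated *mdx* muscle still differed from wild-type muscle in these genes. Against C57, 5 of the 8 members tested were called higher in treated mice and none lower, where 15.6% of all probe sets tested were called higher and 8.96% lower (24.6% in either direction). Cd68, Emr1, Mrc1, Lyz2 and Cd52 were those called, from 1.91-fold for Mrc1 to 2.56-fold for Lyz2, and Cd52 was 2.09-fold higher (adjusted p = 0.0222), a call lost without C57 mouse 1 or treated mouse 3 (adjusted p up to 0.0754). Csf1r, Cd14 and Lyz1 did not pass. In 7 of the 8 every treated mouse lay above every C57 mouse, against 17.9% of all probe sets tested, and Lyz1 was again the exception. Markers of other cells were also higher in treated than in C57 mice: 4 of 5 fibroblast genes were called, Lum (difference 1.77), Col3a1 (1.26), Pdgfra (1.06) and Dcn (0.66), and 2 of 4 endothelial genes, Kdr (0.90) and Pecam1 (0.84), some of them named here after their values were seen. Their part in the values of the members was not tested.

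Within each group the tested members, Mrc1 included, were mostly high and low in the same mice. As a description over the 11 mice, which share the differences between the 3 groups, the Pearson correlation of each gene with the mean row Z-score of the other 7 tested members was 0.97 for Emr1, 0.95 for Lyz2, 0.93 for Csf1r, 0.91 for Cd68, 0.84 for Cd14, 0.79 for Cd52, 0.77 for Lyz1 and 0.58 for Mrc1, whose group means are ordered differently. Within the *mdx* group, mouse 2 was highest in 6 of the 8 tested genes and mouse 1 was lowest in the same 6, while in Cd68 and Cd52 mouse 4 was highest and mouse 3 lowest. Within the treated group, mouse 1 was lowest in 7 of the 8, and mouse 2 was highest in 4 (Cd68, Csf1r, Emr1 and Cd52). Among the C57 mice, mouse 1 was highest in 7 of the 8.

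The 8 genes outside the members whose pattern was most like the mean row Z-score of the tested members over the 11 mice were Ctsh, Myo1f, Itgb2, Anpep, Hpse, Anxa5, Rab31 and Pira1, with Pearson correlations of 0.97 to 0.99. After the group means were taken out, the correlations were 0.87 to 0.97. The pattern that chose these genes holds the difference between *mdx* and C57 mice, so their differences are a description with no test. Ctsh, a lysosomal cysteine protease, was the closest (0.99, and 0.97 with group means taken out), and its difference of *mdx* from C57 was 0.72. That of Itgb2, the shared beta chain of the leukocyte integrins, was 1.56, and that of Anpep, the aminopeptidase CD13, was 1.28.

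Dendritic cell, mast cell and fibroblast markers are given for the other cells such tissue holds. Of 6 dendritic cell genes 3 were tested and none was called in *mdx*, and Cd209a was lower in treated than in *mdx* mice (difference -0.68, adjusted p = 0.0225), as was Ccr7 without treated mouse 2 (-0.42, adjusted p = 0.027). Of 6 mast cell genes 3 were tested and none was called in *mdx*, and Kit was higher in treated than in *mdx* mice (difference 0.48, adjusted p = 0.0376). Of 5 fibroblast genes, Col3a1 and Lum were called higher in *mdx* (differences 1.38 and 1.56) and none in treated against *mdx* mice, where Pdgfra was called higher without treated mouse 2 (difference 0.62, adjusted p = 0.0243). None of 5 red blood cell genes tested was called in any comparison. Over all probe sets tested, 7.06% were called higher in *mdx* than in C57. In treated against *mdx* mice, 7.26% were called higher and 3.88% lower.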

How the data were processed

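RNA from the TA of 11 mice, each a separate animal with its own Affymetrix Mouse Gene ST 1.1 array, was measured (3 C57 mice, 4 untreated *mdx* mice, and 4 that received Pip6e-PMO), and groups were taken from the sample labels. The authors processed the arrays in Affymetrix Expression Console by the RMA-sketch method (background correction, quantile scaling to a sketch distribution, median polish) and deposited normalized intensity values on the linear scale for 28350 probe sets. No genome build is given for the deposited positions, so gene positions and promoters are those of RefSeq, GRCm38.p6, matched by Entrez identifier or symbol. No column of per-sample values was left out (0 unused).

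From these, log2 values of the deposited intensities were fitted with limma 3.58.1 in R 4.3.3 (lmFit and eBayes, 3 group means, all 11 mice, two-sided). Tested were the 14494 probe sets (51.1%) whose mean intensity reached 30 in 1 or more groups, with Benjamini-Hochberg adjustment over all of them. The methods of the study name an unpaired t-test, which was run as an alternative. Changes of 2 genes were compared by exact permutation tests over mice (two-sided, as 2 times the smaller tail). The scripts were tested on simulated data. Further steps used NumPy 2.4.6, pandas 2.3.3 and matplotlib 3.10.9 in Python 3.11.15.

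Named are all 10 members, with the probe set of highest mean signal; from each other list the genes called in *mdx* minus C57 or treated minus *mdx*, at most 5 by size of the former; and the 8 genes most like the members. The members and lists were chosen with earlier results of these data known. Alternatives were other tests, scales, filters, priors, array weights, normalizations and probe set rules, a replicate block and leaving out each mouse. The number of arrays limits the precision, since intensities carry no counts. MicroRNA arrays were not used here.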

Additional observations from a re-analysis of the deposited data

Results flagged for a closer look

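Among the 10 genes in the *mdx* and treated groups of 4 mice (20 sets of values), 1 value stood apart from the rest of its group. Mrc1 in *mdx* mouse 2 was 6.55 on the log2 scale, against 5.99 to 6.05 in the other 3 *mdx* mice. The gap to the nearest of them was 0.893 of the whole range, above Dixon's critical value for 4 samples. Chance sets off this rule in about 5% of groups, so 1 in 20 is what it gives. The same mouse was highest of its group in 6 of the 8 genes tested. Without it, the Mrc1 difference was 0.31 in *mdx* against C57 (adjusted p = 0.128 in limma) and 0.62 in treated against *mdx* mice (adjusted p = 0.0168).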

How the results depend on the processing

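The directions of the differences held under the alternatives run, except that Lyz1 in treated against *mdx* mice ranged from -0.255 to 0.0717 as single mice were left out, the highest without *mdx* replicate 2 (adjusted p = 0.888). The number of calls depended on the test. In *mdx* against C57, where 6 of 8 genes were called, the t-test of the methods gave 3 on log2 signals and 1 on linear signals, the unequal-variance test 0, and array weights 8, with Mrc1 and Lyz1 added. In treated against *mdx* mice, where 2 were called, these 3 tests gave 0, 0 and 0, a fit of only the groups compared 0, array weights 4, a trended and robust prior 3 with Cd52 added, and no filter, repeated quantile normalization and the replicate block 1 each. In treated against C57, where 5 were called, the 3 tests gave 3, 3 and 1. When single mice were left out, the calls ranged from 4 to 6, from 0 to 3 and from 4 to 5. The 0 arose without *mdx* mouse 4 or treated mouse 1, 3 or 4, the 3 without treated mouse 2, and the 4 in *mdx* against C57 without C57 mouse 3. For the 6 pairs of resident and general markers, limma on the within-array differences called 5 in *mdx* against C57 (2 of Mrc1) and 4 in treated against *mdx* mice (3 of Mrc1), where the exact test called 0 and 0. When single mice were left out it called 0 to 0. With 4 against 3 mice or fewer the exact test cannot give a p under 0.0571, so that count was fixed in advance and shows no stability. The limma fit pooled its spread over 6 rows that share genes, so its counts are not a second independent test. A two-sided p counted by absolute difference, an alternative chosen after seeing the data, called 5 and 0. The replicate numbers do not pair the mice: same-numbered mice correlated at -0.297 to 0.153 in their deviations from the group means. With the number as a block, 5 and 1 of the 8 genes were called in the first 2 comparisons. The cause of these shifts was not tested.

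Array signal limits Cd163 and Msr1, which lie under the minimum signal, and Cd14, whose C57 mean is close to it. With 3 or 4 mice a group, calls were lost when single mice were left out for Cd14 and Csf1r in *mdx* against C57, for Cd68 and Mrc1 in treated against *mdx* mice, and for Cd52 in treated against C57 mice (adjusted p up to 0.0754). Leaving out treated mouse 2 for the other gene lists was chosen after seeing the data.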
